A study of Homo sapiens with 121 samples.

Results

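The 6 DNA mismatch repair genes MSH6, MSH3, PMS2, PMS1, MLH3 and EXO1 were examined in 121 single hESCs, among 25610 genes read from the expression table. MSH6 was chosen on its measured correlation with telomere length in these same cells, and the other members were taken as further genes of its pathway, so the values of MSH6 against telomere length are a description. The question was whether its relation is shared by the other 5 genes. The cells belonged to WA26, an established hESC line, grown in E8 medium on Matrigel. The line was passaged with EDTA and Rocki, and no other treatment is named for these cells. Each was analysed by scT&R-seq, in which mRNA is drawn from a lysed cell with an oligo-dT primer for Smart-seq2. The DNA left behind is measured by qPCR. The T/R ratio, the qPCR signal of telomere repeats over that of Alu repeats, is the study's measure of telomere length. Long telomere cells had a T/R ratio over 1 (81 cells), medium telomere cells between 0.4 and 1 (25 cells) and short telomere cells under 0.4 (15 cells). All cells came from 1 line, each T/R ratio is a single measurement of a single cell, and no culture or batch is named for them. Cells are not replicates, so each telomere group counted as 1 sample and no p-value was computed.

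Mismatch repair corrects bases that DNA polymerase pairs wrongly during replication. MutS proteins, among them MSH6 and MSH3, find the mismatch, with MSH6 serving mainly single mispaired bases and MSH3 mainly larger loops of unpaired bases. MutL proteins, among them PMS2, PMS1 and MLH3, are then recruited, and PMS2 nicks the new strand. EXO1 is an exonuclease that removes the stretch carrying the error, after which PCNA, its loader RFC, the single-strand binding protein RPA, DNA polymerase delta and DNA ligase I refill and seal the gap.

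Expression is given as TPM, which is scaled to gene length and to the sum of each cell, so that levels can be compared between genes. Differences between groups are differences of mean log2(TPM + 1), on which changes of weakly expressed genes come out too small, and a gene was called detected in a cell above TPM 1. TPM keeps no read number, so the depth of each cell is unknown and a value of 0 cannot be told from a transcript that was not captured. The number of detected genes moved with the groups, with a median of 9165 for long, 8626 for medium and 5620 for short telomeres. The cells were therefore also described in 2 sets, 68 gene-rich cells with more than 8000 detected genes (51 long, 14 medium, 3 short) and 53 gene-poor cells (30 long, 11 medium, 12 short). All 8 hESC markers, POU5F1 and NANOG among them, were detected in at least 93.4% of cells, and their summed TPM had medians of 3095, 2699 and 1335 in long, medium and short telomere cells. Of 13 markers of differentiated cells, 1 (COL1A2) was detected in over 50% of cells, GATA6, HAND1 and NEUROD1 were detected in none, and the medians of the summed TPM were 14.4, 14.8 and 20.8 with ranges of 0 to 162, 0.1 to 114 and 0.12 to 195. The part of marker levels in the results below was not tested.

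PMS2 and PMS1 lie head to head with a protein-coding gene of the other strand. On GRCh37, MSH6 lies on chromosome 2 from 47922669 to 48037202, PMS1 on chromosome 2 from 190648811 to 190742355, MSH3 on chromosome 5 from 79950471 to 80172634 and EXO1 on chromosome 1 from 242011269 to 242058450, all on the plus strand. PMS2 lies on chromosome 7 from 6010556 to 6048761 and MLH3 on chromosome 14 from 75480472 to 75518235, both on the minus strand. The start of PMS2 is 125 bases from that of AIMP2, a scaffold protein of the aminoacyl-tRNA synthetase complex. PMS1 and ORMDL1, a regulator of sphingolipid synthesis, start 279 bases apart and overlap over 280 bases. The gap between PMS2 and AIMP2 is shown because these neighbours differ in their relation to telomere length, and the stretch before the RefSeq start of MSH6 because MSH6 has the relation in question. Both were read from GRCh37 outside annotated exons, the gap at chr7:6048762-6048885 on the minus strand (the PMS2 direction) and the MSH6 stretch at chr2:48010034-48010220 on the plus strand, within 250 bases before its RefSeq start. This stretch lies inside the span given above for MSH6, because the annotation also holds MSH6 transcripts that start further upstream. Capitals mark matches on either strand to CCAAT, to the GC box GGGCGG and to the E2F motifs TTTCCCGC, TTTCGCGC, TTTGCCGC and TTTGGCGC, which can overlap each other.
PMS2-AIMP2 gap: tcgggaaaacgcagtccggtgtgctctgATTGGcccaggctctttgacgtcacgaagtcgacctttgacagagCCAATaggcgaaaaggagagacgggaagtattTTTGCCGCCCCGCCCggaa
MSH6 upstream: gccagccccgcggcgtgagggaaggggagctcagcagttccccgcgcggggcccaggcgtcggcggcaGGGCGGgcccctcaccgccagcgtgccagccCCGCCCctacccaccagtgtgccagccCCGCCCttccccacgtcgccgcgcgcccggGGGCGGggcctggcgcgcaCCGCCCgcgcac

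The gap held 5 matches, to all 3 kinds of motif, in 124 bases of 56.5% GC, and the MSH6 stretch held 5 GC boxes in 187 bases of 82.4% GC. All 6 members were matched to a RefSeq promoter (GRCh38.p14) of 300 bases, from 250 before to 50 after the start. An E2F motif was found in 4 of the 6 (MSH6, MSH3, PMS2 and EXO1) against 3.33% of 27305 promoters. CCAAT was found in 3 of 6 (MSH6, PMS1 and PMS2) against 35.7%, and the GC box in 5 of 6, all but MLH3, against 44.6%. In MSH6 the CCAAT lay at -47 and the E2F motif at 3 from the start, both outside the stretch printed above. E2F proteins are transcription factors of genes used in S phase. A match is a string of letters in this window and was not tested as a binding site.

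MSH6 was the most highly expressed member, with a mean log2(TPM + 1) of 5.46 ± 1.83 (SD, n = 121 cells), and was detected in 114 of 121 cells. The mean fell in the order MSH6, PMS1 (3.89 ± 2.24), EXO1 (2.63 ± 1.99), MSH3 (2.36 ± 1.60), PMS2 (1.77 ± 1.84) and MLH3 (1.03 ± 1.29). MSH6 was above PMS1 within 96 of 121 cells and PMS1 above EXO1 within 89. EXO1 and MSH3 could not be ordered, with EXO1 higher in 61 cells and MSH3 in 56, and each step in the order was smaller than the SD across cells of the difference. All 68 gene-rich cells expressed MSH6 between TPM 31.3 and 181, and the SD over these cells was 0.48 for MSH6 against 0.89 (PMS1) to 1.53 (PMS2) for the other members.

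In long telomere cells, MSH6 had a lowest TPM of 0, a median of 68.2 and a highest of 404. In medium telomere cells these values were 0.58, 68.2 and 131, and in short telomere cells 0, 3.09 and 56.4. The ranges overlapped, but no short telomere cell reached the median of the long group. On the log2 scale the group means were 6.04 ± 1.12 (long), 5.42 ± 1.59 (medium) and 2.37 ± 2.21 (short). Long telomere cells thus exceeded short ones by 3.67 and medium ones by 0.62, and a long telomere cell was higher in 92.8% of long-short pairs. MSH6 was detected in 80 of 81 long, 24 of 25 medium and 10 of 15 short telomere cells, and all 7 cells without it were gene-poor, with 2577 to 6407 detected genes.

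The short group was not uniform. Its 3 gene-rich cells had MSH6 at TPM 48.3, 53.0 and 56.4, within the range of gene-rich long telomere cells. Of its 12 gene-poor cells, 3 were at 0, 7 lay between 0.18 and 5.54, and the other two had 10.1 and 24.5. Gene-poor long telomere cells had a median TPM of 63.6 (0 to 404, n = 30), close to the 74.4 of gene-rich long telomere cells (31.3 to 181, n = 51). Gene-poor medium telomere cells had a median of 38.7 (0.58 to 131, n = 11), between those of gene-poor long (63.6) and gene-poor short telomere cells (1.53). Long minus short was 4.29 among gene-poor cells and 0.44 among gene-rich cells, where it rests on 3 short telomere cells. Among the 39 gene-poor cells with at least 5000 detected genes, long telomere cells had 6.09 ± 1.03 (n = 22) and short telomere cells 1.75 ± 1.69 (n = 8), a difference of 4.35.

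**Figure D1:**
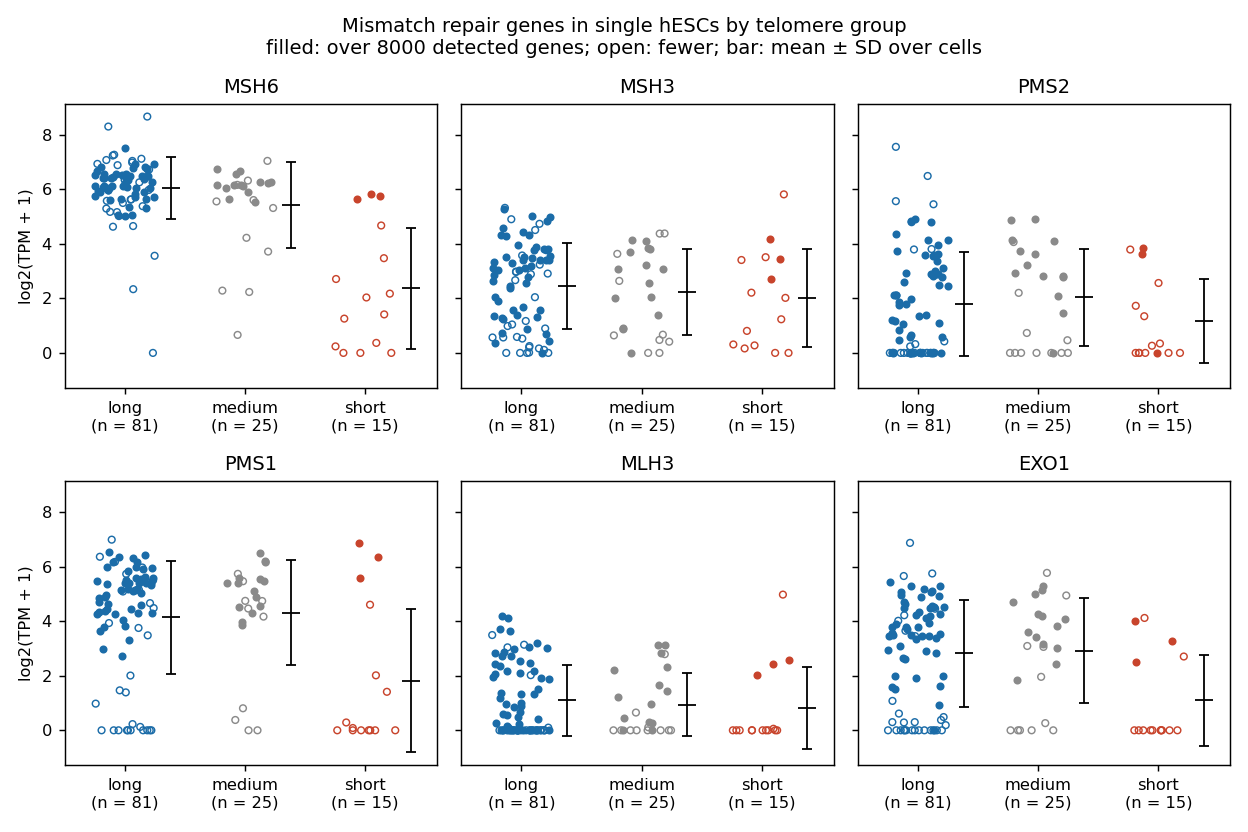
Expression of the 6 members in each cell as log2(TPM + 1), by telomere group. Filled points are cells with more than 8000 detected genes, open points the other cells, and bars the mean ± SD over cells. MSH6 lies low in the gene-poor short telomere cells (median TPM 1.53) and not in the gene-poor long ones (median 63.6), whereas the MSH3 values of the groups overlap throughout.

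MSH3, the other MutS member, showed no such separation. Its TPM ran from 0 to 38.9 with a median of 6.26 (long), from 0 to 19.8 with a median of 4.98 (medium) and from 0 to 55.2 with a median of 3.05 (short). The highest value of all 121 cells was in a short telomere cell, and the groups overlapped over nearly their whole range. Long minus short was 0.45 in all cells, -0.59 in gene-rich and 0.14 in gene-poor cells, each smaller than the SD across cells, which was 1.58 in long and 1.80 in short telomere cells. MSH3 was detected in 60 of 81 long, 16 of 25 medium and 9 of 15 short telomere cells. Within a cell, MSH6 was above MSH3 in 80 of 81 long telomere cells and 23 of 25 medium ones, but in 7 of 15 short telomere cells, with MSH3 higher in another 7. The mean of MSH6 minus MSH3 was 3.59 ± 1.63 in long and 0.37 ± 2.55 in short telomere cells. In 3 short telomere cells MSH3 was detected and MSH6 was not, which was seen in none of the long or medium telomere cells.

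PMS2, the MutL member with nicking activity, was detected in 44 of 81 long, 15 of 25 medium and 6 of 15 short telomere cells. Its median TPM was 1.32 (0 to 187) in the long, 3.60 (0 to 29.3) in the medium and 0.20 (0 to 13.4) in the short group, so that the medium group had the highest median and all groups included cells at 0. Long minus short was 0.64, and the direction was turned among gene-rich cells (-0.38). The annotation also names 8 PMS2 pseudogenes with rows in the table, PMS2P1 among them at a mean TPM of 54.9. Their mean TPM summed to 94.1 against 7.86 for PMS2, and reads could be shared between them, so the level of PMS2 is uncertain.

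PMS1, a MutL member whose part in repair is less defined, was the second most abundant. It had a median TPM of 28.5 (0 to 126) in the long, 25.8 (0 to 89.5) in the medium and 0.06 (0 to 114) in the short group. It was detected in 68 of 81, 21 of 25 and 6 of 15 cells. Long minus short was 2.34 in all cells and 1.93 in gene-poor cells, but -1.22 in gene-rich cells, where the 3 short telomere cells had TPM 47.5, 80.0 and 114 against a median of 34.9 in 51 long telomere cells. The cells at 0 were 10 long, 2 medium and 7 short, and all of them were gene-poor. Among gene-poor cells the median TPM of PMS1 was 2.39 in the long, 21.1 in the medium and 0 in the short group, so that, unlike MSH6, it was also low in gene-poor cells with long telomeres.

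MLH3, which acts in meiosis as well as in repair, was the lowest member. It was detected in 33 of 81 long, 9 of 25 medium and 4 of 15 short telomere cells, and was at 0 in 55 of 121 cells. The median TPM was 0.32 (0 to 17.4) in the long, 0.23 (0 to 7.82) in the medium and 0 (0 to 30.4) in the short group, with the highest value again in a short telomere cell. The long group exceeded the short one by 0.29 in all cells, and the difference was -0.83 in gene-rich cells.

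EXO1 had a median TPM of 9.94 (0 to 116) in the long, 7.89 (0 to 53.6) in the medium and 0 (0 to 16.4) in the short group. It was at 0 in 10 of 15 short telomere cells, in 15 of 81 long and in 5 of 25 medium ones. Long minus short was 1.72 in all cells, 0.41 in gene-rich and 0.82 in gene-poor cells. Over 121 cells EXO1 and PMS1 had the highest correlation of the members with the number of detected genes (Pearson's r 0.65 and 0.63 on the log2 scale). EXO1 was detected in 66 of 68 gene-rich but 16 of 53 gene-poor cells.

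These differences have to be read against the whole table. A mean TPM of 10 or more was reached by 6213 genes, among them 3 members (MSH6, PMS1 and EXO1). Long exceeded short telomere cells by at least 1 on the log2 scale in 66.5% of these genes, and the median over them was 1.40. All 6 members were among 15956 genes above TPM 1 in at least 5 cells, of which 32.7% had such a difference, as had 3 of the 6 members. The median over these 15956 genes was 0.50, against 0.64 for PMS2, 0.45 for MSH3 and 0.29 for MLH3. The share was 12.7% of the 6213 genes among gene-rich cells, with 0 of 6 members called and PMS1 lower by more than 1. Among gene-poor cells it was 51.0%, with MSH6 and PMS1 called of the 3 members in this set. Median differences over these genes were 0.04 in gene-rich and 1.03 in gene-poor cells. Long exceeded medium telomere cells by at least 1 in 1.75% of these genes and in 0 of 6 members. Medium exceeded short telomere cells by at least 1 in 59.9%, and in all 3 members of this set, by 3.05 for MSH6, 2.51 for PMS1 and 1.81 for EXO1. MSH3, MLH3 and PMS2, which are outside it, did not reach 1. Among the 15956 genes ranked by long minus short, MSH6 was at place 26, PMS1 at 854 and EXO1 at 2313, and the other members stood at place 7095 or below.

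**Figure D2:**
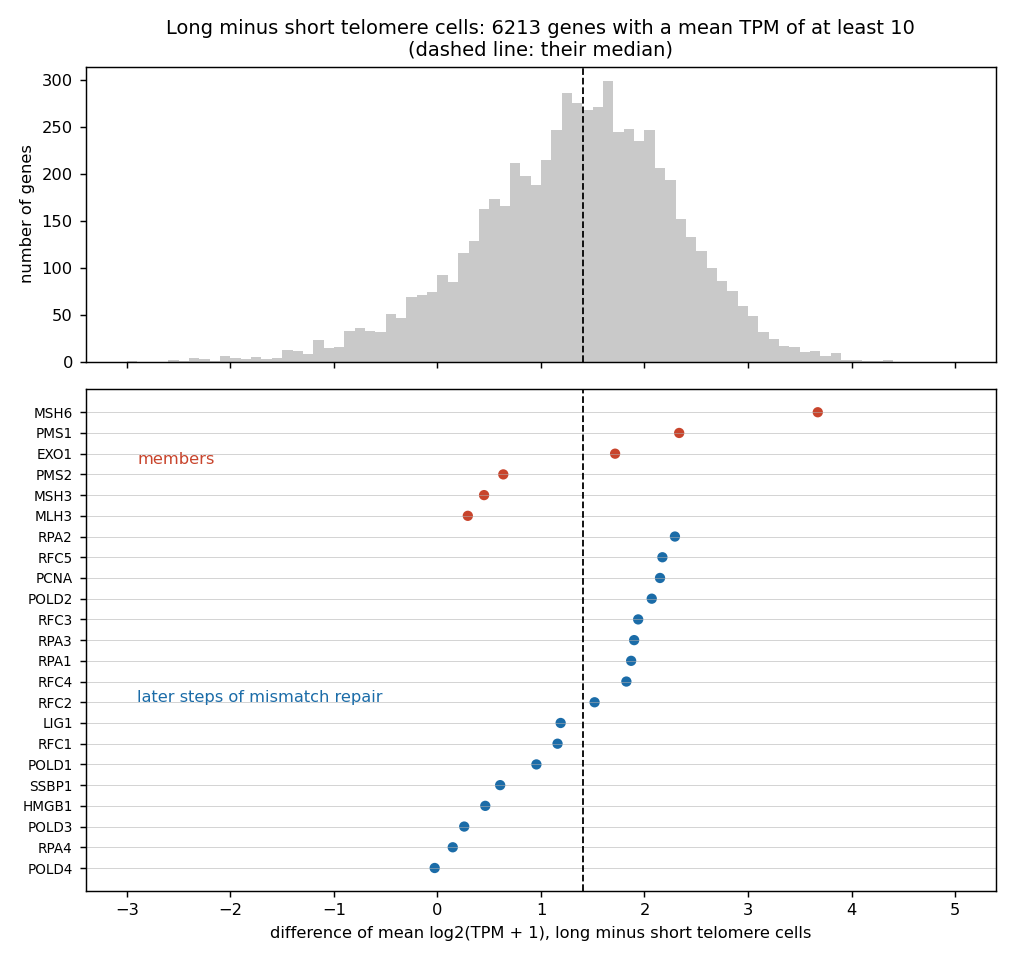
Difference of mean log2(TPM + 1), long minus short telomere cells. The upper panel counts the 6213 genes whose mean TPM was 10 or more, the lower panel gives the 6 members and 17 genes of later repair steps, and the dashed line is the median of the 6213 genes. MSH6 lies at 3.67 against a median of 1.40. MSH3, MLH3 and PMS2, whose mean TPM is under 10, are not among the 6213 genes, and the median over the 15956 genes that hold them is 0.50.

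MSH6 had a Pearson's r of 0.433 with the T/R ratio over 121 cells and a Spearman's rho of 0.377, place 8 by r and place 12 by rho of 15956 genes, and it was chosen for this. No other member had a coefficient of that size. The coefficients were 0.0311 for MSH3 (rho 0.0666), 0.185 for PMS2 (rho 0.00989), -0.0414 for PMS1 (rho 0.0280), -0.137 for MLH3 (rho -0.0655) and -0.0353 for EXO1 (rho 0.0758). A coefficient of at least 0.2 was seen in 11.7% of the 6213 genes and in 7.21% of the 15956, and in 1 of 6 members, MSH6. PMS2 was highest of the others by r, at place 1418, with rho near 0 and 1 long telomere cell at TPM 187.

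Among gene-rich cells, MSH6 had an r of 0.102 (rho 0.108, n = 68), place 4328 of 15955 genes, and a coefficient of at least 0.2 was seen there in 8.85% of the more expressed genes (mean TPM of 10 or more) and in 0 of 6 members. PMS2 had -0.216 there (rho -0.260). Among gene-poor cells, MSH6 had an r of 0.524 and a rho of 0.639 (n = 53), place 12 by r and place 2 by rho of 15524 genes. Of the more expressed genes, which include MSH6 but not PMS2, 20.8% had a coefficient of at least 0.2 in gene-poor cells. MSH6 and PMS2 had one, PMS2 with an r of 0.272 and a rho of 0.0397. MSH3, PMS1, MLH3 and EXO1 lay between -0.163 and -0.00945. The partial correlation of MSH6 at a fixed number of detected genes was 0.430 in all cells and 0.521 in gene-poor cells. Among the gene-poor cells with at least 5000 detected genes, it had an r of 0.503 (rho 0.619, n = 39). Within the telomere groups, r of MSH6 was 0.265 in long (rho 0.0723), -0.137 in medium and 0.436 in short telomere cells. In short telomere cells PMS2 (0.585, rho 0.602) and PMS1 (0.474, rho 0.452) had a higher r than MSH6 (rho 0.348). MSH3 (0.280) and EXO1 (0.249) were lower there, and MLH3 was at -0.0284. In long telomere cells MLH3 (-0.302), EXO1 (-0.286) and PMS1 (-0.248) were negative, MSH3 was at -0.0245 and PMS2 at 0.180. No share of all genes is given within these groups. In the short group, MSH6 had an r of 0.723 with the number of detected genes (n = 15, log2 scale). Its partial correlation with the T/R ratio at a fixed number was -0.341 on TPM and -0.0101 on ranks. For PMS2 this partial correlation was 0.159 on TPM and 0.448 on ranks, and for PMS1 -0.191 and 0.00904.

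**Figure D3:**
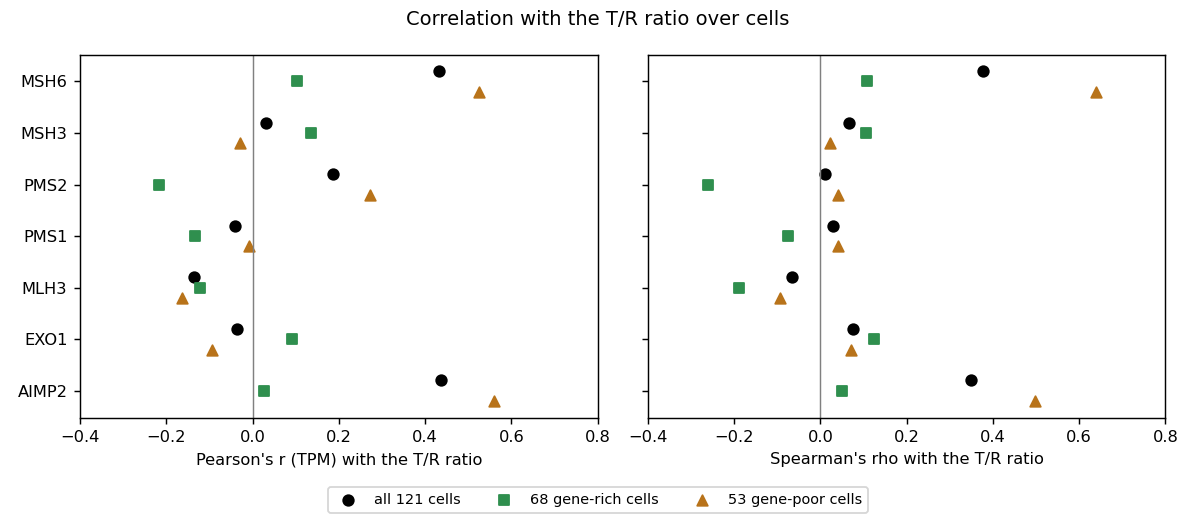
Pearson's r of TPM (left) and Spearman's rho (right) with the T/R ratio, for the 6 members and AIMP2, the neighbour of PMS2. Symbols stand for all 121 cells, 68 gene-rich cells and 53 gene-poor cells. MSH6 and AIMP2 have coefficients over 0.4 by r in all cells (0.433 and 0.437), with values near 0 in gene-rich cells and the highest values in gene-poor cells. The study lists both among its top genes by this correlation.

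MSH6, the member with the highest level, was also the one detected in most gene-poor cells. The percentage of gene-poor cells with the gene detected was 86.8 for MSH6, 50.9 for PMS1, 47.2 for MSH3, 30.2 for EXO1, 24.5 for PMS2 and 11.3 for MLH3. In gene-rich cells it was 100 for MSH6 and PMS1, 97.1 for EXO1, 88.2 for MSH3, 76.5 for PMS2 and 58.8 for MLH3. The correlation of MSH6 with the number of detected genes was 0.50 in all cells, 0.11 in gene-rich and 0.32 in gene-poor cells on the log2 scale. All 6 members were detected together in 30 cells, all gene-rich, and 1 short telomere cell had none. The median number of members detected was 5 in the long, 5 in the medium and 2 in the short group, and 2 in the gene-poor cells of each group.

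**Figure D4:**
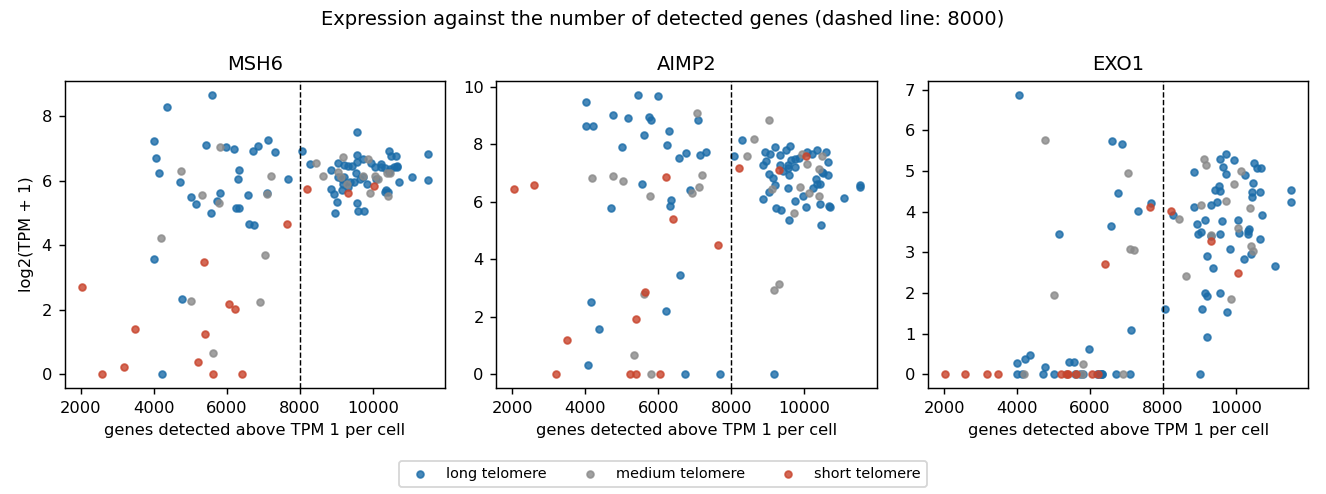
Expression of MSH6, AIMP2 and EXO1 as log2(TPM + 1) against the number of genes detected above TPM 1 in each cell, coloured by telomere group, with the border of 8000 genes dashed. Left of the border, MSH6 stays high in most long telomere cells (detected in 29 of 30) and lies low in short ones, whereas EXO1 is at or near 0 in most cells of each group (detected in 9 of 30 long, 5 of 11 medium and 2 of 12 short).

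The members were correlated more over all cells than within either set. Over all cells, the 15 pairs had a median r of 0.305 (0.190 to 0.426) on log2(TPM + 1), with all 15 above 0. Each member also correlated with the number of detected genes over these cells, from 0.40 (PMS2) to 0.65 (EXO1). No background of other gene pairs is given, so 15 of 15 is not read as particular to these genes. Within gene-rich cells the median was 0.0470 (-0.120 to 0.320), and within gene-poor cells 0.175 (-0.0773 to 0.333). MSH6 and EXO1 had the highest coefficient among gene-rich cells, 0.320 (rho 0.337), and 0.214 among gene-poor cells. MSH6 and PMS1, with 0.426 over all cells, had -0.120 among gene-rich cells. MSH6 and MSH3 had 0.260 over all cells, -0.0105 among gene-rich and 0.175 among gene-poor cells.

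**Figure D5:**
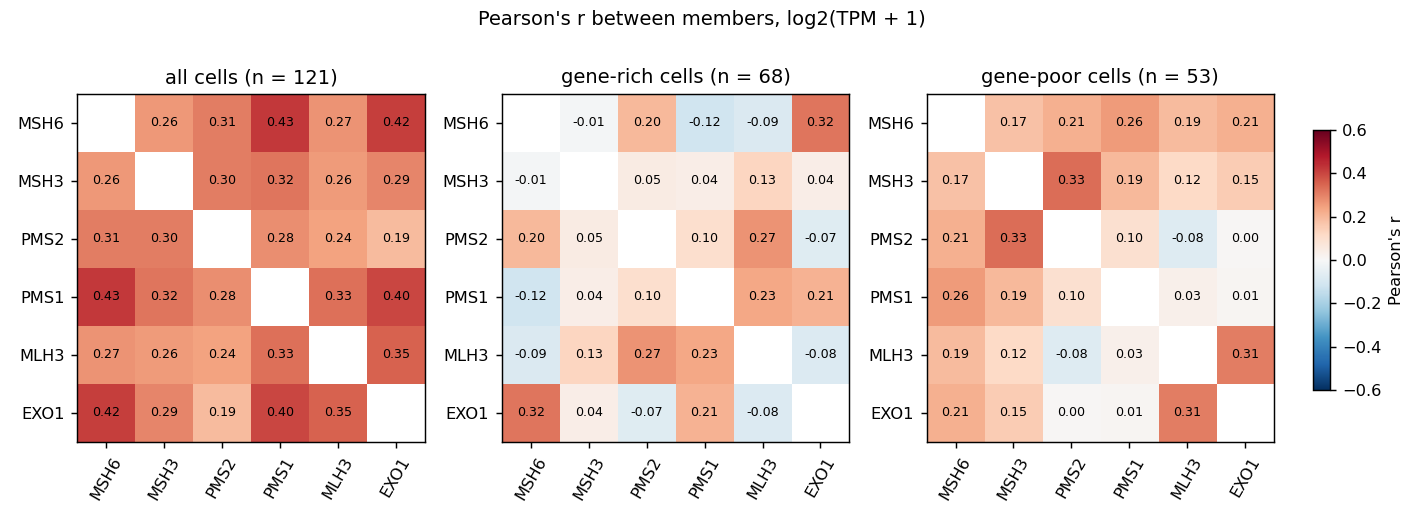
Pearson's r between the 6 members on log2(TPM + 1) over all 121, the 68 gene-rich and the 53 gene-poor cells. The pairs are all positive over all cells (median 0.305) and lower within gene-rich cells (median 0.0470), where MSH6 and EXO1 have the highest value, 0.320. No background of other gene pairs is given.

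Mismatch repair follows replication, so the members were set beside the mean log2(TPM + 1) of 22 S phase genes and 22 G2/M genes. In gene-rich cells, MSH6 and EXO1 had coefficients of 0.278 and 0.270 with the S phase score and -0.206 and -0.165 with the G2/M score. Their correlations with the number of detected genes in gene-rich cells were 0.114 and 0.247. No share of all genes is given beside these coefficients. In gene-poor cells both scores gave positive coefficients, 0.334 (S phase) and 0.407 (G2/M) for MSH6 and 0.210 and 0.369 for EXO1. Over all cells they were 0.494 and 0.492 for MSH6 and 0.499 and 0.505 for EXO1. In gene-rich cells PCNA, the sliding clamp of replication, had 0.551 and -0.262. The other 4 members had between -0.150 and 0.00435 with the S phase score in these cells. The S phase score moved with the groups, from 4.49 ± 0.75 (long) and 4.29 ± 0.67 (medium) to 3.25 ± 1.25 (short). In gene-poor cells it was 3.95 ± 0.90, 3.83 ± 0.74 and 2.94 ± 1.21, and in gene-rich cells 4.81 ± 0.39, 4.65 ± 0.29 and 4.50 ± 0.01. The G2/M score moved as well, from 5.31 ± 1.30 (long) and 4.93 ± 1.64 (medium) to 3.51 ± 1.88 (short), with 4.35, 4.01 and 2.84 in gene-poor cells. In gene-rich cells it was 5.87 ± 0.74, 5.65 ± 1.13 and 6.19 ± 1.31, highest in the 3 short telomere cells. For genes with a mean TPM of 10 or more, the median of long minus short was 1.40 over all cells. It was 1.03 in gene-poor and 0.04 in gene-rich cells. Long and short telomere cells differed in the S phase score by less than this median in all cells and in gene-poor cells. In gene-rich cells they differed by more. The G2/M score differed by more than this median in all cells and in gene-poor cells. The part of either score in the difference of MSH6 was not tested.

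The later steps of repair were described by 17 genes, of which 15 had a mean TPM of at least 10. Long exceeded short telomere cells by at least 1 in 11 of the 17, with a median of 1.52, against 66.5% and 1.40 for the genes with a mean TPM of 10 or more. Among gene-rich cells 3 were higher by at least 1, against 12.7%, and 1 was lower, POLD4. Among gene-poor cells 9 were higher, against 51.0%. The sliding clamp PCNA and the 5 RFC subunits that load it were all higher over all cells, by 1.16 (RFC1) to 2.17 (RFC5), with PCNA at 2.15. Among gene-rich cells 0 of these 6 differed by 1, with a median of 0.29, -0.16 for PCNA and -0.21 for RFC1. RPA1, RPA2 and RPA3 had differences of 1.87, 2.29 and 1.90, and RPA4 was detected in 4 cells. Of the other single-strand and DNA binding genes of the list, SSBP1, which is known for its role in mitochondria, had 0.61 and HMGB1 0.46. For the subunits of DNA polymerase delta, the difference was 0.96 for POLD1, 2.07 for POLD2, 0.26 for POLD3 and -0.03 for POLD4, and for the ligase LIG1 it was 1.19. Over all cells, no gene of the list reached the difference or the coefficient of MSH6. MSH6 was chosen for a high coefficient, so this order was largely set beforehand. Of the 17, 3 had a coefficient of at least 0.2 with the T/R ratio over all cells, against the 11.7% above. They were POLD2 (0.256), RFC3 (0.209) and RFC2 (0.201). Among gene-rich cells RFC5 had the highest, 0.392 (rho 0.414). Of the MutS homologues of meiosis, MSH4 was listed at 0 in all cells and MSH5 was detected in 32.2%.

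AIMP2 and ORMDL1 were expressed above their neighbours among the members in most cells. AIMP2 had a median TPM of 134 (0 to 834) in the long, 91.1 (0 to 546) in the medium and 21.5 (0 to 190) in the short group and was above PMS2 in 113 of 121 cells. Long minus short was 2.81 for AIMP2 against 0.64 for PMS2, 3.51 against 0.44 in gene-poor and -0.53 against -0.38 in gene-rich cells. AIMP2 had an r of 0.437 with the T/R ratio over all cells, 0.0264 in gene-rich and 0.559 in gene-poor cells, values near those of MSH6. The study lists AIMP2, like MSH6, among its top genes by correlation with telomere length in these same cells. AIMP2 stood at place 6 of 15956 genes by r over all cells. Its nearness to MSH6 and its contrast with PMS2 are therefore a description. On the log2 scale the correlation of PMS2 with AIMP2 was 0.307 in all cells, 0.164 in gene-rich and 0.286 in gene-poor cells, for the genes on either side of the 124 bases printed above. ORMDL1 was above PMS1 in 91 cells and had an r of 0.121 with the T/R ratio. PMS1 and ORMDL1 had a coefficient of 0.308 with each other over all cells, -0.120 in gene-rich and 0.270 in gene-poor cells. By GENCODE gene spans, introns included, MSH6 overlaps FBXO11, a gene of the other strand, over 20748 bases. The authors counted reads on RefGene genes, whose overlap was not examined here. HTSeq assigns reads by strand under its default setting, which the methods name. No source used here says that the library kit marked strand, so reads of any shared stretch are uncertain for both genes. FBXO11 had a mean TPM of 12.6 against 68.0 for MSH6, an r of 0.0365 with the T/R ratio and a correlation of 0.268 with MSH6 (0.0479 in gene-rich and 0.0826 in gene-poor cells).

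The genes most like MSH6 were sought by Spearman's rho among 7997 genes above TPM 1 in at least 60 cells. Over all cells they were HIF1A (rho 0.576), a transcription factor of the response to low oxygen, CANX (0.571), a chaperone of the endoplasmic reticulum, the long non-coding RNA TUG1 (0.521), the receptor TGFBR1 (0.511) and USO1 (0.503), which acts in Golgi transport. Within gene-rich cells they were CNIH4 (0.481), PARP1 (0.463), an enzyme that senses DNA breaks, TMEM177 (0.441), TMBIM6 (0.439) and DEK (0.434), a chromatin protein. Within gene-poor cells they were TUG1 (0.669), the chaperonin subunit CCT5 (0.664), CANX (0.638), NOTCH2 (0.614) and UBQLN1 (0.613). No other member was among them, but MLH3, detected in 46 cells, was left out of the search by its limit of 60 cells. Long minus short for the 5 genes of all cells ran from 1.62 (TGFBR1) to 3.04 (HIF1A), below the 3.67 of MSH6. MSH6 was chosen for its relation to telomere length, so this order was largely set beforehand. UBQLN1, like MSH6 and AIMP2, is among the study's top genes by correlation with telomere length in these same cells.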

How the data were processed

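According to the methods, the authors mapped 50-base single-end reads to hg19 with TopHat and counted them per RefGene gene with HTSeq, with normalization by a size factor function. The submitters' processing notes name TopHat2 and RSEM. The authors deposited 1 table of TPM values with a column for each of 121 cells. It was read for 25610 genes, and later rows and some genes that the lists and rules name are not reported here. The T/R ratio is the one the study lists for each cell.

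The members, lists and the border of 8000 detected genes were chosen with earlier results of these data known. Borders of 7000 and 9000, the limit of 5000 and the partial correlations within the sets of cells were added after the values were seen. Named genes are the members, the genes of the lists, the neighbours and the 5 genes with the highest rho with MSH6 in each set of cells. Differences used log2(TPM + 1) with a pseudocount of 1, and correlations with the T/R ratio used TPM. No test was made. TPM keeps no depth, so no counting error could be given. Alternatives were other pseudocounts, medians, scalings, detection limits and sets of cells.

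Gene positions are from GENCODE v44lift37 (GRCh37). The calculations, tested on simulated data, ran in Python 3.11.15 (numpy 2.4.6, pandas 2.3.3, scipy 1.17.1) and plots in matplotlib 3.10.9.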

Additional observations from a re-analysis of the deposited data

How the results depend on the processing

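The long minus short difference of MSH6, 3.67, stayed above 1 in all 8 alternatives tried. It was 4.69 with a pseudocount of 0.1, 2.13 with a pseudocount of 10, 2.46 between log2 of mean TPM + 1, and 1.89 between the 40 cells with the highest and the 40 with the lowest T/R ratio. The median over the 6213 more expressed genes ranged from 0.46 to 2.18 with these choices. The number of members past a difference of 1, 3 of 6, was 1 with a pseudocount of 10 and 1 with 40 against 40 cells. MSH3 turned to -0.14 when TPM was divided by the median ratio and to -0.07 without the tenth of cells with the fewest detected genes. MLH3 turned to -0.19 between log2 of mean TPM + 1 and to -0.16 with 40 against 40 cells. The correlation of MSH6 with the T/R ratio, 0.433, was 0.616 with both on a log2 scale and 0.265 among long telomere cells only. Members with a coefficient of at least 0.2 numbered 2 on the log2 scales, MSH6 and PMS1 (0.224). They also numbered 2, MSH6 and PMS2 (0.230), when the 2 cells of most extreme T/R ratio were left out. No share of all genes was computed for either setting. The median over pairs of members was 0.0470 in gene-rich and 0.175 in gene-poor cells. The percentage of cells with MLH3 detected, long minus short, turned to -0.494 at a limit of TPM 10. With the border at 7000 or 9000 detected genes, MSH6 differed by 4.47 and 4.00 among gene-poor cells, and MSH3 turned to 0.35 among gene-rich cells at 7000. Of 144 recomputed values 91 stayed within a limit (0.5 on the log2 scale, 0.1 for coefficients, 5 percentage points or 1.5 times a count), and of 72 more from the choices added after the values were seen, 66. A change of sign was seen in 16 of the 144 and 5 of the 72, none of them a value of MSH6. No paired analysis was possible because the numbers of the cells are only an order within a group and no test was made. Short telomere gene-rich cells number 3, which limits every comparison among them.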
